A study of Mus musculus with 4 samples.

Results

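The 37 genes described here encode aminoacyl-tRNA synthetases, the enzymes that load each tRNA with its amino acid. They were chosen by symbol: a single letter followed by ars, with or without a final digit, or Farsa, Farsb or Eprs, and a log2 value of at least 0 in 2 or more libraries. All 37 symbols that matched the pattern passed this filter, among 17303 genes tested and 55339 rows in the deposited table. By name 17 are mitochondrial (symbols ending in 2) and 17 cytosolic, and Gars, Kars and Qars are not split by name. Expression was measured by sequencing of polyadenylated RNA in leukemia cells taken from the bone marrow of C57BL/6 mice. There were 2 libraries of the genotype WT (replicates 4 and 5) and 2 of the genotype YBX1-/-, titled cKO (replicates 1 and 3). The titles of both WT libraries and knockout replicate 1 begin RNA-seq1 and that of knockout replicate 3 begins RNA-seq2, with no meaning given, so what these prefixes stand for cannot be told apart from the spread of the knockout pair. YBX1 is an mRNA-binding protein with a cold-shock domain, and the series title asks about mRNA stability and leukemia cell survival. The leukemia model, the age of the mice and the driver of the deletion are not given in the sources used here, and no label says that replicates came from separate animals. P-values therefore measure only the spread between these libraries, which may be technical.

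Each synthetase recognises 1 amino acid and its tRNAs, joins them at the cost of ATP, and in several cases edits away wrongly joined amino acids. Class I and class II enzymes carry unrelated catalytic folds. In animal cells a group of cytosolic synthetases sits with scaffold proteins in the multisynthetase complex, while separate nuclear genes encode most of the enzymes that are imported into mitochondria and serve translation of the respiratory chain subunits encoded there. Gars and Kars supply both compartments from 1 gene each. Several cytosolic synthetase genes are known targets of ATF4, the transcription factor of the amino acid response, which acts through a C/EBP-ATF response element.

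Matches to the core of that element are shown here because they occurred in promoters of members without a mitochondrial name. Of the 37 genes, 26 had a promoter in the RefSeq table (GRCm38.p6), a window of 300 bases that reaches 250 bases upstream of the annotated start. The core TGATGNAA, searched on both strands, was found in 5 of these 26 promoters and in 3.97% of all 32851 promoters of the table. All 5 belong to the 12 matched genes without a mitochondrial name (Aars, Gars, Iars, Tars and Yars), and 0 of the 14 matched mitochondrial genes held it. The E-box CACGTG, the same on both strands and the site class of MYC, was found in 5 of 26 promoters (Aars, Ears2, Farsb, Iars and Tars) and in 7.15% of all. It lay in 1 of the 14 matched mitochondrial genes and in 4 of the 12 others. Of these only the window of Ears2, the 1 mitochondrial match, is shown. No match of one motif overlapped a match of the other. Each line gives 30 bases on the gene's strand, 5′ to 3′, with the match in capitals.
Aars, chr8:111033840-111033869, plus strand, 9 bases after the start: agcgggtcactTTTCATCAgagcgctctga
Gars, chr6:55037960-55037989, plus strand, 30 bases before the start: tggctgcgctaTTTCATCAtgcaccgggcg
Iars, chr13:49682126-49682155, plus strand, 7 bases after the start: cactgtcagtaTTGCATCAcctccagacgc
Tars, chr15:11399655-11399684, minus strand, 15 bases before the start: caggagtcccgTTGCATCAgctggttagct
Yars, chr4:129189895-129189924, plus strand, 3 bases after the start: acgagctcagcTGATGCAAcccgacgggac
Ears2 (E-box), chr7:122067048-122067077, minus strand, 21 bases after the start: cgcgaaggagccCACGTGtgtgtttctagt
In Iars, Tars and Yars the core reads TTGCATCA or its complement TGATGCAA, and in Gars it reads TTTCATCA. A match describes the letters of these windows and is not evidence of binding.

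Libraries were checked before the synthetase genes were compared. Ybx1 (chromosome 4, 119277981 to 119294604) was at 7.29 and 8.33 in the knockout libraries, 10.002 in WT replicate 5 and 19.70 in WT replicate 4. WT replicate 4 stood apart: across all tested genes its Pearson's r with the other libraries was 0.69 to 0.71, against 0.93 to 0.96 among the other 3, a description across genes with no p. All 10 markers of myeloid cells passed the value filter, with a summed level of 16.97 and 17.04 (log2) in the knockout libraries, 16.72 in WT replicate 5 and 24.47 in WT replicate 4. That sum is carried by Elane, at 16.48 and 16.55 in knockout and 15.84 in WT replicate 5. Of the 10, 1 lay above WT replicate 5 in both knockout libraries and 5 below, and their median lay at -0.22. Both WT libraries were exceeded by 0 of them, and 4 lay below both: Itgam, Kit, Lyz2 and Csf3r, at -1.68, -1.45, -1.25 and -0.32 from WT replicate 5. Of all tested genes 41.8% lay above and 33.4% below WT replicate 5, and 17.3% above and 18.8% below both WT libraries. Of 8 erythroid markers 5 passed, with summed levels of 2.20 to 4.66 outside WT replicate 4 and 6.89 in it. Of these 5, 0 lay above both WT libraries and 1 below. That was Alas2, at 2.96 and 3.33 in WT replicates 4 and 5 against -0.39 and -0.03 in knockout. Of 8 B cell and 8 T and NK cell markers, 4 and 3 passed. Cd3e, Cd3g, Cd4 and Cd8a were listed at 0 throughout, while the B cell list summed to 6.53 in WT replicate 4 and 7.99 to 8.89 elsewhere, and the T and NK list, mostly from Nkg7, to 19.38 in WT replicate 4 and 8.49 to 9.53 elsewhere. Megakaryocyte markers summed to 2.56 to 5.54 over 5 of 5 genes, and stromal and endothelial markers to 6.13 to 7.13 over 3 of 7. Their part in the synthetase results was not tested. The values are normalized log2 expression without counts, so depth is unknown, and fewer cells of a type cannot be told apart from less RNA per cell.

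The synthetase genes divided in WT replicate 4. In 7 of 37 genes (18.9%) it lay over 2 log2 above WT replicate 5, against 19.3% of all tested genes, and in 23 (62.2%) over 1 log2 below, against 30.3%. The valine, arginine and leucine enzymes were far above: Vars was at 19.66 in WT replicate 4 and 8.96 in WT replicate 5, Rars at 19.57 and 9.76, and Lars at 19.43 and 9.94. Of their mitochondrial namesakes, Lars2 and Rars2 were also above, at 16.10 against 9.11 and at 14.66 against 8.86. Vars2 was below, at 5.13 against 6.47. Nars and Tars were above as well, by 2.999 and 2.92. At the other end, Farsa was at 5.81 against 9.53 and Tars2 at 5.55 against 9.23. Of the 17 mitochondrial genes, 14 lay under log2 6 in WT replicate 4, where they ran from 4.61 to 5.55. That bound was set on these values and in part fixes the narrow range. The same 14 ran from 3.34 to 9.23 in WT replicate 5 and from 5.04 to 9.28 in knockout replicate 1. Differences from the WT mean therefore rest on this library for most members, and comparisons of the members with WT are also given against WT replicate 5 alone.

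**Figure D1:**
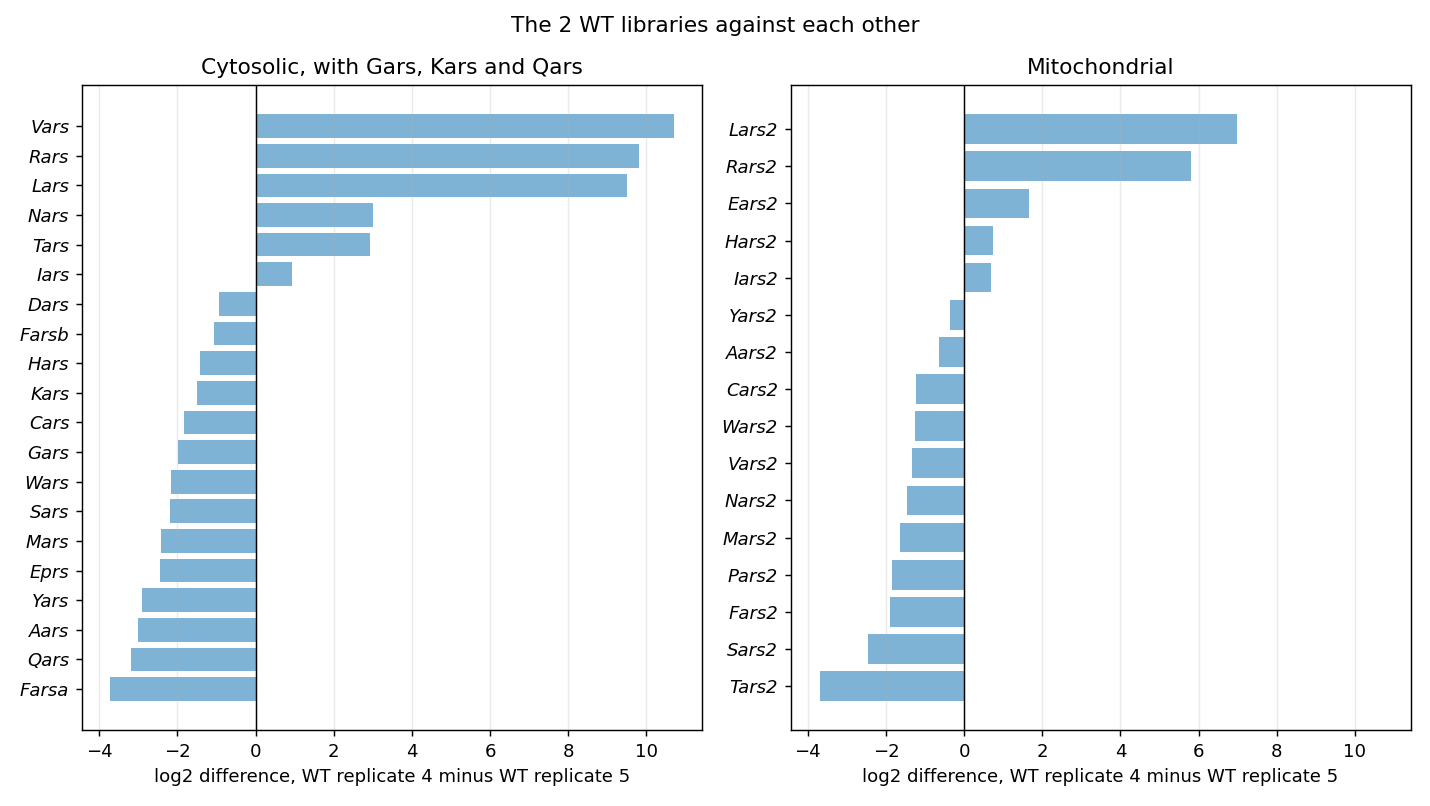
Difference between the 2 WT libraries for each synthetase gene named here, as WT replicate 4 minus WT replicate 5 on the log2 scale; each bar is 1 gene. Vars, Rars, Lars, Lars2 and Rars2 lie 5.80 to 10.70 above, and most other genes lie below, down to -3.72 in Farsa.

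Between YBX1-/- and WT leukemia cells, 18 of the 37 genes (48.6%) had both knockout values above both WT values and 1 had both below, but no gene passed the test. Over all tested genes the percentages were 17.3% above and 18.8% below. Among the widest gaps were those of the mitochondrial genes Iars2 and Yars2, where the knockout means exceeded the WT means by 2.59 and 2.62 on the log2 scale. Against WT replicate 5 alone, 22 of 37 (59.5%) lay above and 9 (24.3%) below, against 41.8% and 33.4% of all tested genes. Against WT replicate 4 alone, 30 (81.1%) lay above and 7 (18.9%) below, against 38.5% and 50.7%. The median difference over the 37 genes was 0.96 with both WT libraries and 0.12 against WT replicate 5, and over all tested genes -0.09 and 0.07.

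Limma, which moderates each gene's variance with that of all genes, called 0 of 17303 genes (0.0%) at a Benjamini-Hochberg adjusted p under 0.05. All 37 members had adjusted p-values between 0.826 and 0.986. At an unadjusted p under 0.05 limma listed 3 members, all mitochondrial and all higher in knockout (8.11%, against 0.676% of all tested genes higher and 3.09% lower). Yars2 and Iars2 are among them, each with a limma adjusted p of 0.826. Without WT replicate 4, limma called 0 genes, with a smallest adjusted p of 0.466 among the members, and 7 members (18.9%) had an unadjusted p under 0.05, all higher, against 5.4% of all tested genes higher and 4.99% lower. Without knockout replicate 3, which leaves the libraries titled RNA-seq1, limma called 0.509% of all genes and 0 members, whose smallest adjusted p was 0.999869; knockout replicate 1 alone lay above both WT libraries in 20 members (54.1%) and below in 3, against 28.2% and 25.2% of all tested genes. Without WT replicate 5 it called 28.7% of all genes, and of the members 18 higher and 7 lower, against 14.2% and 14.5%.

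**Figure D2:**
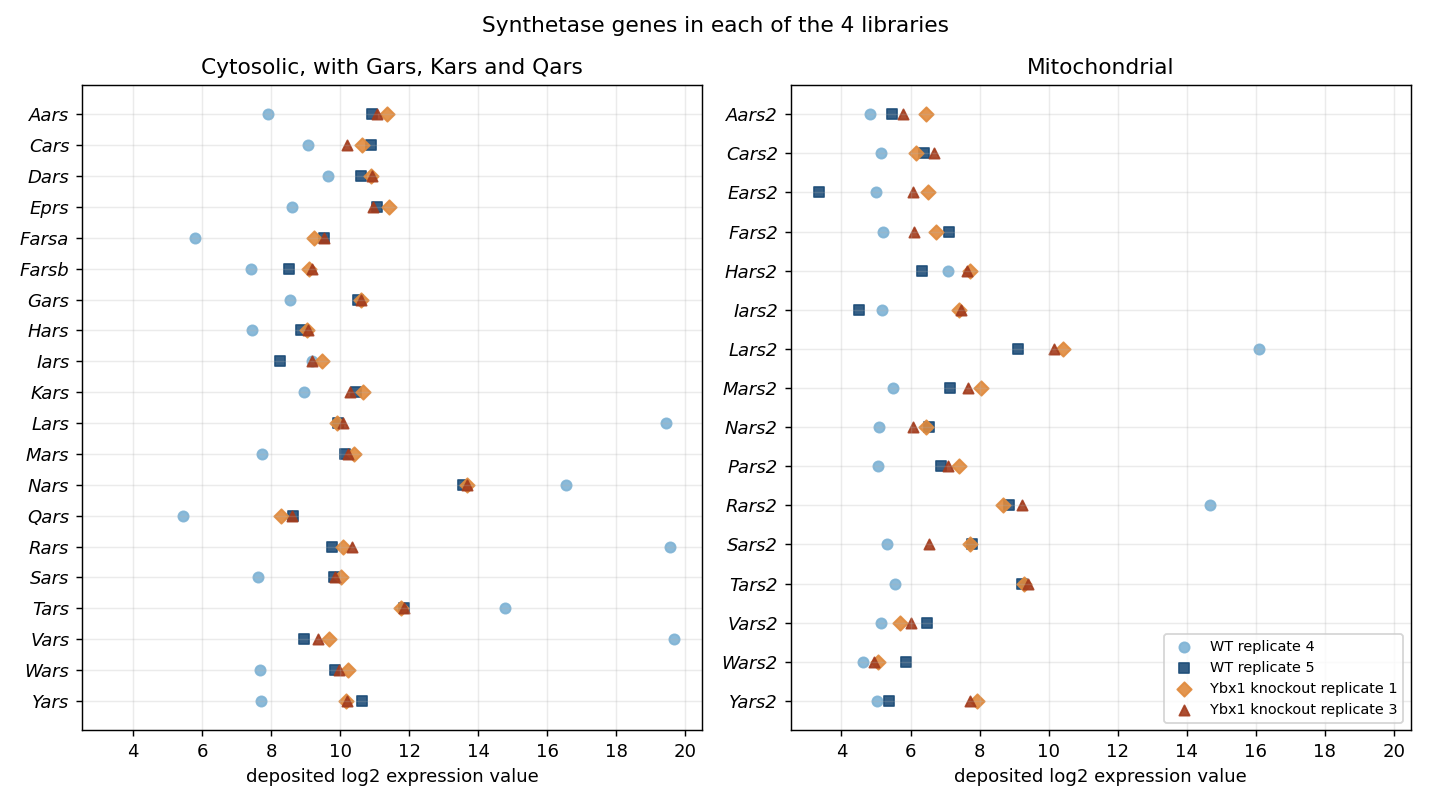
Deposited log2 expression of each synthetase gene named here in the 4 libraries; each point is 1 library, with WT in blue and Ybx1 knockout in orange and red. The knockout points of Iars2, Yars2 and Ears2 lie to the right of both WT points, and the WT replicate 4 points of Vars, Rars and Lars lie near 20 on the axis, far from the others.

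Against WT replicate 5, the differences of mitochondrial synthetases spread more widely than those of cytosolic ones; with both WT libraries the cytosolic limma differences ran wider, from -4.80 to 1.80, than the mitochondrial ones, from -2.81 to 2.62. Of the 17 mitochondrial genes, 9 (52.9%) had both knockout values above both WT values and 0 had both below, against 17.3% and 18.8% of all tested genes. Against WT replicate 5 alone 10 lay above, 5 below and 2 on both sides, where 41.8% of all tested genes lay above and 33.4% below. Differences from WT replicate 5 ran from -0.87 in Wars2 to 2.94 in Ears2, with a median of 0.35.

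Iars2, the mitochondrial isoleucine enzyme (chromosome 1, 185284726 to 185329396, minus strand, GRCm38), was at 5.18 in WT replicate 4, 4.51 in WT replicate 5, and 7.40 and 7.46 in the knockout libraries. The groups did not overlap, and the knockout pair lay closer together than the WT pair. The WT libraries averaged 4.85 ± 0.48 (SD, n = 2) and the knockout libraries 7.43 ± 0.04 (SD, n = 2), a limma difference of 2.59 (SE 0.67). Against WT replicate 5 the difference was 2.92, a 7.59-fold higher level. In the GENCODE annotation 22.9% of the exon bases of Iars2 also lie in exons of Rab3gap2. That gene was at 5.37 and 6.81 in WT replicates 4 and 5 and at 7.51 and 7.21 in knockout, 0.55 above WT replicate 5. The strand setting of the counting is not given in the sources used here, so reads of the shared bases cannot be assigned to either gene. The next largest shares with another coding gene were 14.3% in Aars (Exosc6), 9.5% in Farsb (Sgpp2), 8.7% in Fars2 (Nrn1) and 8.0% in Hars (Hars2).

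Yars2, the mitochondrial tyrosine enzyme (chromosome 16, 16302965 to 16309640, plus strand), was at 5.04 and 5.39 in WT replicates 4 and 5 and at 7.93 and 7.74 in knockout replicates 1 and 3. The WT libraries lay closer together here than in any other member, and the groups were well separated, at 5.21 ± 0.25 (SD, n = 2) and 7.83 ± 0.14 (SD, n = 2). The limma difference was 2.62 (SE 0.64), and the knockout mean was 5.44-fold above WT replicate 5. Ears2, which charges mitochondrial tRNA with glutamate (chromosome 7, 122037213 to 122067263, minus strand), was at 4.999 and 3.34 in WT and 6.50 and 6.06 in knockout. Its difference was 2.94 from WT replicate 5 and 1.28 from WT replicate 4. In 6 members the WT libraries lay within 1 log2 of each other (Aars2, Dars, Hars2, Iars, Iars2 and Yars2, singled out after the values were seen), and all 6 are among the 18 above both WT libraries. Close WT values make this easier to meet, and the share over all tested genes with WT libraries this close was not computed. Ears2, Iars2 and Yars2 had both knockout values above both WT values also after quantile normalization.

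Hars2, for histidine, was at 7.08 and 6.34 in WT replicates 4 and 5 and at 7.71 and 7.62 in knockout. It shares 195 exon bases with the neighbouring gene Hars, which is read from the other strand, and its groups overlapped after quantile normalization. Mars2, for methionine, was at 5.49 and 7.13 against 8.04 and 7.66. Aars2, for alanine, was at 4.83 and 5.47 against 6.45 and 5.77. Pars2, for proline, was at 5.05 and 6.89 against 7.41 and 7.08. In Tars2, for threonine, the knockout values of 9.28 and 9.41 lay just above the 9.23 of WT replicate 5 and far above the 5.55 of WT replicate 4, and the groups overlapped after quantile normalization.

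Lars2, for leucine, depended on the WT library. It was at 16.10 in WT replicate 4, 9.11 in WT replicate 5, and 10.42 and 10.17 in knockout. The limma difference was -2.31 with both WT libraries and 1.18, in the opposite direction, against WT replicate 5. Rars2, for arginine, was at 14.66 and 8.86 in WT and at 8.68 and 9.22 in knockout, on both sides of WT replicate 5.

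The 5 mitochondrial genes below WT replicate 5 in both knockout libraries were Wars2, Fars2, Sars2, Vars2 and Nars2, with differences of -0.87, -0.69, -0.65, -0.61 and -0.29. All 5 lay above WT replicate 4 in both knockout libraries. Wars2, for tryptophan, was at 4.61 and 5.87 in WT and 5.04 and 4.96 in knockout. Sars2, for serine, differed within the knockout pair by more than the mean lay from WT replicate 5, at 7.73 and 6.52 against 7.77. Cars2, for cysteine, lay on both sides of WT replicate 5, at 6.16 and 6.68 against 6.39.

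**Figure D3:**
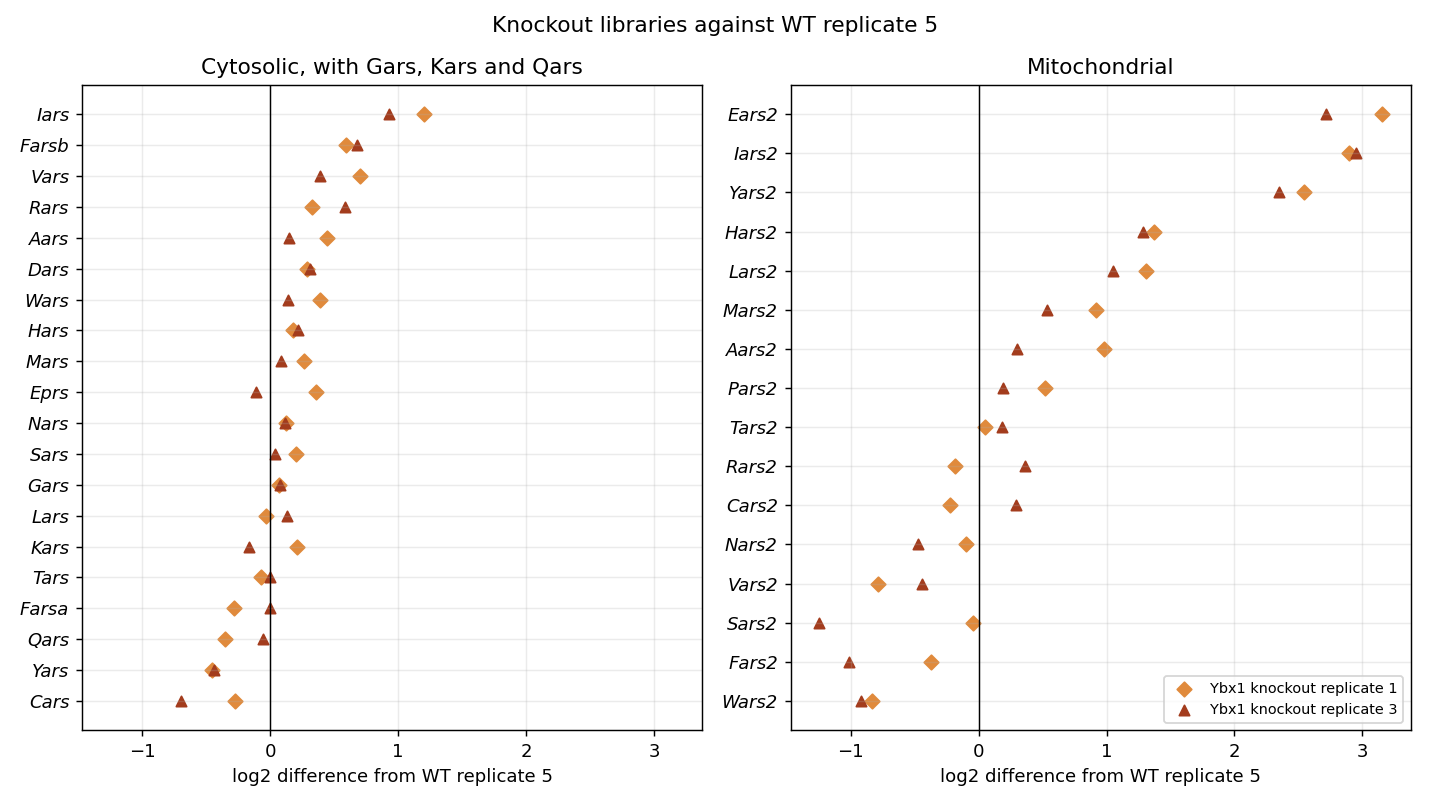
Log2 difference of each knockout library from WT replicate 5, for cytosolic genes (left, with the 3 genes not split by name) and mitochondrial genes (right); each gene has 1 point per knockout library. Mitochondrial means run from -0.87 in Wars2 to 2.94 in Ears2, and cytosolic means from -0.48 in Cars to 1.07 in Iars.

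Of the 17 cytosolic synthetases, 14 had a mean difference from WT replicate 5 under 0.5 log2 in size, against 5 of the 17 mitochondrial genes and 48.5% of all tested genes. Further, 1 cytosolic gene against 6 mitochondrial genes lay over 1 log2 above, where 12.9% of all tested genes did. This contrast between the compartments was not tested. The mitochondrial genes were also lower in level, with a median of 6.52 in WT replicate 5 against 9.94 for the cytosolic genes. The part of level in the spread was not tested. The range was -0.48 to 1.07, with a median of 0.17. Against both WT libraries 8 of the 17 (47.1%) lay above and 1 below, where 17.3% and 18.8% of all tested genes did. The WT replicate 4 value was the lower WT value in 7 of the 8.

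Iars, the isoleucine enzyme of the multisynthetase complex, was the gene over 1 log2 above. It was at 9.19 and 8.27 in WT replicates 4 and 5 and at 9.47 and 9.20 in knockout replicates 1 and 3. The lower knockout value lay just above WT replicate 4, and after centring each library on its median, or quantile normalization, the groups overlapped. Its difference from WT replicate 5 was 1.07 (limma SE 0.25, adjusted p = 0.477 without WT replicate 4). Farsb, the beta subunit of the phenylalanine enzyme, was at 7.43 and 8.50 in WT and 9.10 and 9.18 in knockout. Farsa, which encodes its partner alpha subunit, was at 5.81 and 9.53 in WT and 9.25 and 9.53 in knockout. Thus 1 subunit lay 0.64 above WT replicate 5 and the other -0.14 from it.

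The remaining cytosolic genes above both WT libraries were Aars, Dars, Hars, Mars, Sars and Wars. Aars, for alanine, was at 7.92 and 10.92 in WT replicates 4 and 5 and at 11.37 and 11.07 in knockout. Dars, for aspartate, was at 9.65 and 10.60 against 10.88 and 10.91. Wars, for tryptophan, was at 7.68 and 9.84 against 10.23 and 9.98. In all 3 the nearest knockout library lay closer to WT replicate 5 than the WT libraries lay to each other. Hars was at 7.44 and 8.86 against 9.04 and 9.08. Mars, for methionine and thus also for the initiator tRNA, was at 7.73 and 10.15 against 10.41 and 10.23. Sars was at 7.61 and 9.81 against 10.01 and 9.85, only just above WT replicate 5.

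Tars, for threonine, was the 1 member below both WT libraries. It was at 14.76 in WT replicate 4, 11.844 in WT replicate 5, and 11.772 and 11.842 in knockout, so that one knockout value nearly equalled WT replicate 5. After quantile normalization both knockout values lay above both WT values. Cars and Yars lay lower than WT replicate 5, at 10.62 and 10.20 against 10.89 and at 10.17 and 10.19 against 10.62, and higher than WT replicate 4, at 9.07 and 7.71. Eprs, a fused enzyme for glutamate and proline, lay on both sides of WT replicate 5, at 11.41 and 10.94 against 11.05.

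Vars, Rars, Lars and Nars had limma differences of -4.80, -4.45, -4.70 and -1.38 with both WT libraries. Against WT replicate 5 the same genes were 0.55, 0.46, 0.05 and 0.12 higher. Vars was at 9.67 and 9.35 in knockout, Rars at 10.09 and 10.34, Lars at 9.91 and 10.07, and Nars at 13.68 and 13.67. For these 4 genes the direction was set by which WT library was used.

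Among the genes not split by name, Gars, for glycine, was at 8.55 and 10.53 in WT replicates 4 and 5 and at 10.60 in both knockout libraries. Kars, for lysine, was at 8.95 and 10.45 against 10.66 and 10.29. Qars, for glutamine, was at 5.45 and 8.64 against 8.29 and 8.59. All 3 differed from WT replicate 5 by at most 0.20 in size and lay above WT replicate 4 in both knockout libraries.

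Both genes of an amino acid were set side by side in 18 pairs, with Eprs paired to Ears2 and to Pars2, and Fars2 to both phenylalanine subunits. Pairs share genes, and no test was made of them. In 11 of 18 the mitochondrial gene had the higher difference from WT replicate 5, in 6 by over 1 log2, and in 3 the cytosolic gene was higher by over 1. For tyrosine the 2 genes lay on opposite sides, with Yars at -0.44 and Yars2 at 2.44. For isoleucine both were higher, Iars by 1.07 and Iars2 by 2.92. For tryptophan and valine the order was the other way, with Wars at 0.27 and Wars2 at -0.87, and Vars at 0.55 and Vars2 at -0.61.

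**Figure D4:**
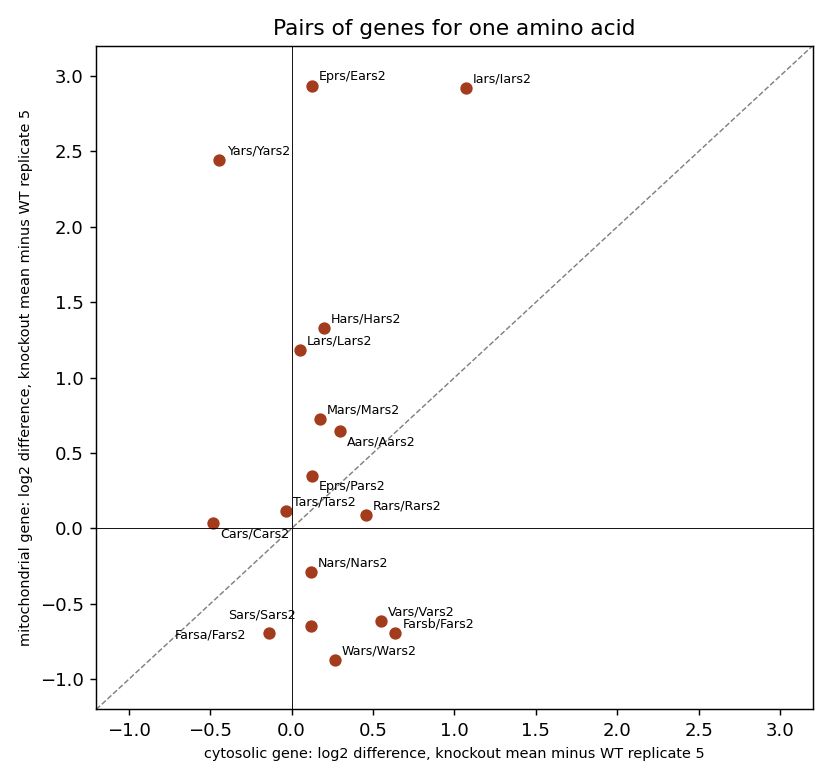
Difference of the knockout mean from WT replicate 5 (log2) for the cytosolic gene (x axis) and the mitochondrial gene (y axis) of the same amino acid; each point is 1 pair of the genes named here and the dashed line marks equal differences. Pairs with Ears2, Iars2, Yars2, Hars2 and Lars2 lie over 1 log2 above the line.

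By enzyme class, 7 of 18 class I genes (38.9%) and 11 of 18 class II genes (61.1%) lay above both WT libraries, and 10 and 12 above WT replicate 5, with medians of 0.22 and 0.12 against that library. Eprs, which has a domain of each class, is counted in neither. Of all tested genes, 17.3% lay above both WT libraries and 41.8% above WT replicate 5, with a median of 0.07 against that library. Among the 8 synthetases of the multisynthetase complex (Dars, Eprs, Iars, Kars, Lars, Mars, Qars and Rars), 3 lay above both WT libraries and 4 above WT replicate 5, with a median of 0.15. The 12 other genes without a mitochondrial name had a median of 0.12. Of the scaffold genes of the complex, Aimp1 was at 5.45 and 7.68 in WT and 7.94 and 8.33 in knockout, and Aimp2 at 5.61 and 8.33 against 8.73 and 8.57. Eef1e1 was at 19.75 and 9.10 in WT and at 9.53 and 9.76 in knockout. The scaffolds were thus 0.45, 0.32 and 0.55 above WT replicate 5.

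Of the members, 1 was called higher in the authors' deposited table (Iars2, log2 fold change 3.33, adjusted p 0.0442) and 0 lower. Over all tested genes with a fold change that table called 0.157% higher and 3.96% lower. In the authors' deposited table the next smallest adjusted p-values were 0.0515 for Lars2 and 0.0681 for Yars2, at log2 fold changes of -4.78 and 2.96. Lars, Rars and Vars were listed in the authors' deposited table with log2 fold changes of -8.20, -7.92 and -8.89 but a p-value of 1, as were Fars2 and Tars2 with 0.27 and 1.66, and 9.01% of all tested genes with a fold change had a p-value of 1. In 3 members the authors' deposited table had the opposite sign to the limma difference with both WT libraries: Aars at -1.43, Cars at -2.11 and Eprs at -0.22. Set against the difference from WT replicate 5 alone, 15 of the 37 members had the other sign in the authors' deposited table: Aars, Eprs, Fars2, Farsa, Lars, Lars2, Nars, Nars2, Qars, Rars, Rars2, Sars2, Vars, Vars2 and Yars.

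Other genes of tRNA biology and the amino acid response were read from 6 lists, 92 of 93 genes being tested, and limma called 0 of them, with a smallest adjusted p of 0.826. The authors' deposited table called 0 of them higher at an adjusted p under 0.05. It called lower 3 amino acid response, 3 elongation, 1 scaffold, 1 tRNA end processing and 1 synthetase-like or export gene. Over all tested genes with a fold change it called 0.157% higher and 3.96% lower. In each listed gene that it called lower, WT replicate 4 was the highest library, at 12.89 to 22.23. The differences of these genes from WT replicate 5 ran from -0.48 to 0.78. Beside the counts below, 17.3% of all tested genes lay above and 18.8% below both WT libraries, and 41.8% and 33.4% against WT replicate 5. Of 15 synthetase-like, editing and tRNA export genes, 8 lay above both WT libraries and 2 below, and 10 above and 3 below WT replicate 5. Among the 8 was the tRNA export receptor Xpot, at 8.73 and 8.07 in knockout against 5.55 and 8.04. Sephs1 and Sepsecs, of selenocysteine synthesis, lay 0.36 and 0.33 above WT replicate 5. Of 16 tested genes that finish mitochondrial aminoacyl-tRNA or serve mitochondrial elongation, 5 lay above and 0 below both WT libraries, and 5 above and 4 below WT replicate 5, with a median of 0.01. Mtfmt, which formylates the initiator methionyl-tRNA, was at 5.17 and 6.78 in WT and 7.83 and 7.61 in knockout, Gfm2 at 5.41 and 6.55 against 7.81 and 6.89, and Mto1 at 5.42 and 7.66 against 8.32 and 7.85.

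Of 20 genes of tRNA end processing and splicing, 8 (40%) lay above both WT libraries and 1 below, against 17.3% and 18.8% of all tested genes. Against WT replicate 5, 12 (60%) lay above and 4 (20%) below, where 41.8% and 33.4% of all tested genes did. Tsen54, a subunit of the tRNA splicing endonuclease, was at 5.36 and 5.17 in WT replicates 4 and 5 against 7.39 and 7.63 in knockout (limma difference 2.24, SE 0.63, adjusted p = 0.826). Trnt1, which adds the CCA end to which amino acids are joined, was at 5.91 and 9.03 against 10.02 and 10.00, and Clp1, an RNA kinase, at 5.61 and 8.08 against 8.996 and 8.72. Of 10 genes of cytosolic elongation and termination, 3 lay above and 0 below both WT libraries, and 5 above and 0 below WT replicate 5. The 3 were Gspt1, a release factor, at 5.53 and 7.78 in WT against 9.01 and 9.19 in knockout, the methyltransferase gene Eef1akmt1, 0.16 above WT replicate 5, and the elongation factor subunit Eef1g, 0.39 above it. Etf1, also a release factor, lay on both sides of WT replicate 5, at 7.66 and 9.67 against 10.24 and 9.64.

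Of 28 genes of the amino acid response, 9 (32.1%) lay above both WT libraries and 3 (10.7%) below, against 17.3% and 18.8% of all tested genes. Against WT replicate 5, 15 (53.6%) lay above and 7 (25%) below, where 41.8% and 33.4% of all tested genes did. Atf4 itself was at 7.69 and 10.17 in WT replicates 4 and 5 and at 10.14 and 10.06 in knockout, -0.07 from WT replicate 5. Eif2ak4, which encodes the GCN2 kinase that senses uncharged tRNA, was at 4.55 and 3.17 against 5.14 and 4.90. Ddit4, a stress-induced inhibitor of mTORC1 signalling, was at 5.23 and 6.14 against 7.31 and 6.87, and the cystathionine gamma-lyase gene Cth at 4.84 and 5.23 against 6.44 and 6.04. Cbs lay lower, at 0.43 and 0.42 in knockout against 1.87 and 1.57. The 5 genes with the response element core in their promoters (Aars, Gars, Iars, Tars and Yars) lay 0.30, 0.07, 1.07, -0.04 and -0.44 from WT replicate 5.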

How the data were processed

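The authors deposited 1 table with log2 expression values per gene symbol and library, and their own log2 fold change, p-value and adjusted p-value. According to the submitters' processing notes the tools were CASAVA, featureCounts, HISAT2 2.1.0 and DESeq2, and the build was GRCm38; roles are not stated. How the deposited log2 values were normalized is not given in the sources used here. Per the file headers the fold change is WT vs. cKO, but its sign matched knockout minus the mean of both WT libraries in 34 of 37 members and is read so; 15 had the opposite sign to the difference from WT replicate 5 alone.

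Rows at 0 in all libraries (30280) were left out. Limma 3.58.1 in R 4.3.3 was fitted with a mean-variance trend to the values as deposited, with no pseudocount, after a check on simulated data. That check gave every library the spread of the knockout pair, so it does not cover a WT library that stands apart. A lone WT library is assumed to vary like the knockout pair. Positions come from GENCODE M21 (GRCm38). A member and a motif match are counted but not reported here; every other member is named, in full where its groups did not overlap, the authors called it or its pair partner qualified; from each further list Atf4, Eif2ak4 and up to 3 genes with the smallest limma p are named. Members, lists and tests were chosen with earlier results of these data known. The sizes of 0.5, 1 and 2 log2 and the bound of log2 6 used in counts were chosen after seeing the values.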

Additional observations from a re-analysis of the deposited data

How the results depend on the processing

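Limma called 0 genes with all libraries, with no filter, a filter of log2 5, centring, quantile normalization, no trend, or pseudocounts of 0.1, 0.5 and 1. With 1 library left out it called from 0 to 4960 genes: 0 without WT replicate 4, 4960 without WT replicate 5, 26 without knockout replicate 1 and 88 without knockout replicate 3. Leaving out 1 library moved the median difference of the 37 members (0.96) to between 0.12 and 1.52, of cytosolic members (0.91) to between 0.17 and 1.62, and of mitochondrial members (0.96) to between 0.35 and 1.28, each lowest without WT replicate 4 and highest without WT replicate 5. Members above WT numbered 18, or 22 and 30 without WT replicates 4 and 5, 18 after centring and 17 after quantile normalization (15 of them among the first 18). Of all tested genes 17.3% lay above, or 41.8% and 38.5% without these libraries, 17.5% after centring and 23.5% after quantile normalization. Members below WT numbered 1, or 9 and 7 without WT replicates 4 and 5, and 0 after centring or quantile normalization. Of all tested genes 18.8% lay below, or 33.4% and 50.7% without these libraries, 19.3% after centring and 12.5% after quantile normalization. The cause of these shifts was not tested.

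The sign of the difference turned when 1 library was left out in 15 members: Cars (-0.48 to 1.34), Fars2 (-0.69 to 1.22), Farsa (-0.14 to 3.58), Lars (-9.44 to 0.051), Lars2 (-5.80 to 1.18), Nars (-2.88 to 0.12), Nars2 (-0.29 to 1.17), Qars (-0.20 to 2.99), Rars (-9.35 to 0.46), Rars2 (-5.71 to 0.088), Sars2 (-0.65 to 1.80), Vars (-10.15 to 0.55), Vars2 (-0.61 to 0.72), Wars2 (-0.87 to 0.39) and Yars (-0.44 to 2.47). These ranges end at WT replicate 4 or 5 left out. The sign also turned after centring in Vars2 (-0.081), and after quantile normalization in Fars2 (-0.19), Lars2 (1.40), Nars (2.08), Sars2 (-0.067), Tars (1.36), Vars2 (-0.26) and Wars2 (0.028). It turned in none of the 37 under the filters, the trend setting or the pseudocounts. No paired analysis was possible because the groups share no replicate number. Without counts, depth and detection limits are unknown.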
